A study of Mus musculus with 15 samples.

Results

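DZNep (3-deazaneplanocin A) was compared with its vehicle DMSO in B16-F10 cells, a pigmented mouse melanoma line, by RNA sequencing. The comparison took the 3 libraries labelled DZNep and the 3 labelled DMSO, which are 6 of the 15 libraries of the series, and every gene that passed a filter on low counts. Per the labels and the series design, the DZNep cells received 2 µM of the compound and the DMSO cells the vehicle alone. The other 9 libraries served only to show where DZNep differed: 3 from cells given 2 µM GSK126, which blocks the catalytic site of EZH2, 3 from cells given an siRNA against Ezh2 (siEzh2) and 3 from cells given a scrambled siRNA (scr). All groups were taken as the same cell line, with no genetic change named in the labels. The sample titles read B16 for the DZNep libraries and B16-F10 for the other groups. Whether the DZNep and DMSO cells were grown and sequenced together is not stated, so a batch and the compound cannot be told apart. The time on treatment is not given in the sources used here. No label states whether the replicates were separate cultures. The p-values therefore reflect the spread among these libraries alone, and that spread may be technical.

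Methyltransferases take their methyl group from S-adenosylmethionine and release S-adenosylhomocysteine, which inhibits them. S-adenosylhomocysteine hydrolase, encoded by Ahcy, removes that product by splitting it into adenosine and homocysteine. DZNep inhibits this hydrolase, so it can act on methylation of histones, DNA, RNA and other substrates together. It is best known for lowering the Polycomb repressive complex 2 (PRC2), whose catalytic subunit EZH2 methylates histone H3 at lysine 27.

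The 6 libraries held between 34690674 and 64545747 counts, and 1 count was worth 0.0154 to 0.0295 CPM (counts per 1000000 of library size, with sizes scaled by the TMM method). Mitochondrially encoded transcripts took 8.36% to 9.27% of counts with DMSO and 6.17% to 8.4% with DZNep, lowest in DZNep replicate 3. On the first principal component (60.1% of variance) the DZNep libraries lay at 72.7 to 74.7 and the other 12 libraries between −27.1 and −12.3. DMSO replicate 3 was the deepest library. Melanocyte markers were present in all 6 libraries. Tyrp1 lay at 9095, 8934 and 9126 CPM with DMSO and 10440, 10460 and 10660 CPM with DZNep, and Mlana at 1160, 1243 and 1344 CPM with DMSO and 1215, 1387 and 1361 CPM with DZNep. In bulk RNA, fewer cells of one kind and less RNA per cell cannot be told apart.

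Ahcy, the gene of the drug's enzyme, lay at 25.3, 22.8 and 23 CPM with DMSO and 28.9, 27.1 and 29 CPM with DZNep (log2 0.26 ± 0.10, adjusted p = 0.0379; chromosome 2, 155059310 to 155074497 of GRCm38). The 2 groups did not overlap, but the difference was 1.2-fold and did not pass when DMSO replicate 2 was left out (adjusted p = 0.106). Nor did it pass on leaving out DMSO replicate 3 (adjusted p = 0.11), DZNep replicate 1 (0.0892) or DZNep replicate 3 (0.103). Ezh2 lay at 204, 209 and 208 CPM with DMSO and 160.3, 156 and 150.2 CPM with DZNep (log2 −0.41 ± 0.05, adjusted p = 3.67e-07), so that every DZNep library was below every DMSO library. Ezh1, the paralogous catalytic subunit, lay at 41.8, 39.9 and 44.2 CPM with DMSO and 45.4, 45.5 and 51 CPM with DZNep (log2 0.17 ± 0.07, adjusted p = 0.0421), and this did not pass on leaving out DMSO replicate 1 (0.0807), DMSO replicate 2 (0.148) or DZNep replicate 3 (0.227).

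Most expressed genes differed in level between DZNep and DMSO. Of 15152 genes tested, 9434 passed an adjusted p of 0.05, which is 62.3%, with 4733 higher (31.2%) and 4701 lower (31%). These shares are the background against which each group of genes below is read. All 3 DZNep libraries lay above all 3 DMSO libraries in 4754 genes (31.4%) and below them in 4793 (31.6%). Groups without overlap were therefore common. Changes of at least 2-fold were fewer, with 768 genes higher (5.07%) and 1208 lower (7.97%), and of at least 4-fold there were 222 and 302. The median log2 fold change over all tested genes was 0.00 and the quartiles were −0.35 and 0.31. Scaling by library size and TMM centres the bulk of genes near 0. This median therefore cannot show whether total RNA per cell changed. Genes with a low level in the scr libraries, which took no part in the comparison, changed most in size. Under 1 CPM in scr, 16.7% of genes were higher and 18% lower by at least 2-fold, and at 256 CPM or more the shares were 0.613% and 1.38%. A gene low in scr can pass the filter through a higher level in another group, and at low counts only wide changes are called. The shares of low genes therefore lean to large folds. Promoters poor in CpG showed a similar contrast: where the observed over expected CpG ratio of the RefSeq promoter window was under 0.25, 12.9% of genes were higher and 19.7% lower by at least 2-fold, and at 0.75 or more 2.4% and 5.6%. The level of the genes was not held equal between these classes.

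**Figure D1:**
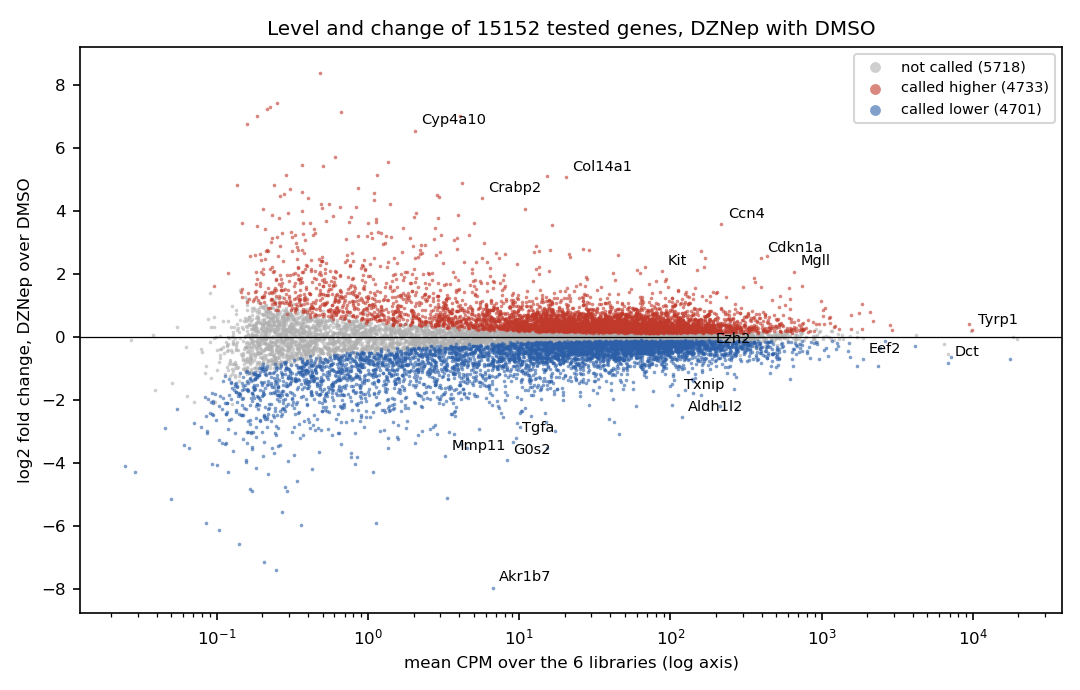
Each point is 1 of the 15152 tested genes, with its mean level over the 3 DMSO and 3 DZNep libraries (CPM, log axis) and its log2 fold change with DZNep; red points were called higher (4733), blue lower (4701) and grey neither. The widest changes lie at low levels, while Tyrp1 and Dct show shifts of 0.22 and −0.82 at high levels.

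The largest increases took genes that were near silence with DMSO to clear expression. Prl2c5, a member of the prolactin family of hormones, lay at 0.0478, 0.0699 and 0.0616 CPM with DMSO and 7.79, 7.91 and 8.51 CPM with DZNep (log2 7.0 ± 0.29, adjusted p = 6.63e-14). Prl2c genes are near-identical copies, so the split of reads among them is uncertain. Cyp4a10, a fatty acid hydroxylase, lay at 0.0956, 0.0233 and 0.0154 CPM with DMSO and 4.37, 3.81 and 3.96 CPM with DZNep (log2 6.55 ± 0.31, adjusted p = 3.19e-12). Neb, which encodes the giant filament protein nebulin of skeletal muscle, rose from 0.813, 0.978 and 0.785 to 26.2, 30.7 and 31.8 CPM (log2 5.12 ± 0.15, adjusted p = 3.37e-16; chromosome 2, 52136647 to 52378474). Col14a1, a fibril-associated collagen, rose from 1.17, 1.28 and 1.08 to 40.2, 39 and 39.2 CPM (log2 5.08 ± 0.12, adjusted p = 9.55e-18; chromosome 15, 55307750 to 55520803). For each of these genes all DZNep libraries lay above all DMSO libraries, which the rule for naming the largest changes required. Genes as low with DMSO as Prl2c5 and Cyp4a10 can pass the filter through their level with DZNep. Atp2a1, the calcium pump of the muscle reticulum, rose by 4.89 on the log2 scale, Duox1, a hydrogen peroxide-producing oxidase, by 4.43, and Crabp2, which carries retinoic acid to its receptor, by 4.41. Muc20 (3.92), Frmd4b (3.88), the ETS factor Elf5 (3.78) and the DNA polymerase Poln (3.63) followed.

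Ccn4, a secreted matricellular protein and a known target of Wnt signalling, had the smallest p and SE of the 12 largest increases. It lay at 35.4, 33.9 and 31.6 CPM with DMSO and 398, 404 and 401 CPM with DZNep, a 11.9-fold difference (log2 3.58 ± 0.05, adjusted p = 1.59e-20; chromosome 15, 66891320 to 66923201). Its levels with GSK126 were 32, 31.1 and 32.6 CPM. In the siRNA arm Ccn4 lay at 18.7, 18.4 and 17.4 CPM with scr and 76, 72.1 and 75.3 CPM with siEzh2. The DZNep effect was larger than the siEzh2 effect by 1.54 ± 0.07 on the log2 scale (adjusted p = 1.91e-12).

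Among the decreases, Akr1b7, an aldo-keto reductase, fell from 15.8, 11.7 and 12.4 to 0.0295, 0.0954 and 0.0226 CPM (log2 −7.97 ± 0.31, adjusted p = 1.17e-12; chromosome 6, 34412334 to 34423142). The 3 DZNep libraries together held 6 counts of Akr1b7 and the DMSO libraries 1972, so the size of the fold rests on few reads. Apobr, a receptor for apolipoprotein B48, fell by 5.11 on the log2 scale, and it overlaps Cln3 and Il27 on the other strand, so its reads are uncertain. G0s2, an inhibitor of the lipase that opens lipid droplets, lay at 14.9, 12.4 and 19.4 CPM with DMSO and 0.974, 1.22 and 0.883 CPM with DZNep (log2 −3.93 ± 0.24, adjusted p = 3.14e-09). Tgfa, a ligand of the EGF receptor, lay at 16.6, 16.4 and 18.6 CPM with DMSO and 1.95, 1.83 and 1.79 CPM with DZNep (log2 −3.22 ± 0.09, adjusted p = 1.1e-16; chromosome 6, 86195223 to 86275719), and Odf3l1 at 31.1, 26.6 and 27.2 CPM with DMSO and 2.54, 2.53 and 2.26 CPM with DZNep (log2 −3.54 ± 0.08, adjusted p = 9.55e-18). Neither pair of groups overlapped, which was likewise a condition for naming them among the largest decreases. Mmp11, a matrix metalloprotease, fell by 3.80, Col20a1 by 3.53, the homeobox gene Hoxb9 by 3.40, Mcf2l by 3.38, the mitochondrial membrane protein gene Mpv17l by 3.35, Afap1l2 by 3.11 and Cdsn, corneodesmosin, by 3.10.

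Among abundant transcripts, Mgll, the lipase of monoacylglycerols, rose from 247, 229 and 280.2 to 1054, 1091 and 1032 CPM (log2 2.07 ± 0.06, adjusted p = 1.02e-15), and Tuba1a, an alpha tubulin, from 350.2, 378 and 373 to 1066, 1128 and 1156 CPM (log2 1.61 ± 0.05, adjusted p = 1.88e-15). Calr, the chaperone calreticulin, rose by 1.03 and Bhlhe41, a circadian repressor, by 1.13. The gain of both ferritin chains was less even: Fth1 lay at 1281, 1491 and 1811 CPM with DMSO and 2283, 2854 and 2790 CPM with DZNep, and Ftl1 at 1119, 1198 and 1587 CPM with DMSO and 1671, 2213 and 2753 CPM with DZNep. Of the largest losses in CPM, Dct, an enzyme of the melanin pathway, lay at 8943, 9350 and 8025 CPM with DMSO and 5358, 5002 and 4518 CPM with DZNep (log2 −0.82 ± 0.07, adjusted p = 5.63e-09), Pabpc1, which binds poly(A) tails, at 2924, 2870 and 3487 CPM with DMSO and 1560, 1678 and 1668 CPM with DZNep (log2 −0.92 ± 0.07, adjusted p = 4.37e-10), and the ubiquitin ligase gene Nedd4 at 2298, 2335 and 2108 CPM with DMSO and 1221, 1215 and 1105 CPM with DZNep (log2 −0.93 ± 0.06, adjusted p = 2.09e-11).

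The amino acid stress programme driven by the transcription factor ATF4 was lower almost throughout. ATF4 activates genes of amino acid synthesis, uptake and tRNA charging when the initiation factor eIF2 is phosphorylated, and it binds a composite element shared with C/EBP factors. Of 47 tested members of the ATF4 target list, 43 fell, 1 rose and 3 did not pass, with 20 lower by at least 2-fold and a median log2 fold change of −0.92 against 0.00 over all genes. The summed level of the list was 10100 to 10700 CPM with DMSO and 6120 to 6380 CPM with DZNep. Vldlr, a lipoprotein receptor, lay at 84.8, 67.8 and 67.5 CPM with DMSO and 11.1, 12.6 and 9.96 CPM with DZNep (log2 −2.71 ± 0.09, adjusted p = 3.98e-14), and Pck2, the mitochondrial phosphoenolpyruvate carboxykinase, at 75.4, 68 and 77.1 CPM with DMSO and 23.6, 27 and 26.5 CPM with DZNep (log2 −1.52 ± 0.06, adjusted p = 2.71e-14). The member that rose was Slc7a3, a transporter of cationic amino acids, from 0.526, 0.349 and 0.416 to 1.42, 1.22 and 2.22 CPM. The transcript of Atf4 itself, looked up after these values were seen, lay at 684, 627 and 651 CPM with DMSO and 314, 333 and 373 CPM with DZNep (log2 −0.95 ± 0.07, adjusted p = 1.82e-10).

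The element TGATGNAA (either strand) was searched in RefSeq promoter windows of GRCm38.p6, 250 bases before to 50 bases after the start. It lay in 15 of the 37 ATF4 targets that have a window (40.5%), in 2.71% of 10395 tested genes and in 4.51% of 27025 promoters. All 15 members with a match fell, with a median log2 fold change of −1.28, and of the 22 without one 20 fell, with a median of −0.80. Outside the list, 267 tested genes held the letters, and of these 37.8% were lower and 32.6% higher, with a median of −0.03. A match is a description of the letters, not a site or a cause. The stretches below are those of the 7 members with the smallest p whose match lies upstream of the start, shown because they are the promoters of the group that fell most uniformly. Capitals mark the element, on either strand, and each stretch is given 5′ to 3′ on the gene's strand.
Pck2 (chr14:55540133-55540200, plus strand): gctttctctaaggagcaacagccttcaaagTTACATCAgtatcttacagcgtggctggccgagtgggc
Vldlr (chr19:27216790-27216857, plus strand): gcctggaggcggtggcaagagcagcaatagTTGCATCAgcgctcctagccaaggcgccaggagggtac
Chac1 (chr2:119351019-119351086, plus strand): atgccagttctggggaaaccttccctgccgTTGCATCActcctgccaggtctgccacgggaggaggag
Pycr1 (chr11:120643814-120643881, minus strand): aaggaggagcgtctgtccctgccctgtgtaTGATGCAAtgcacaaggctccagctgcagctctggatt
Asns (chr6:7693210-7693262, minus strand): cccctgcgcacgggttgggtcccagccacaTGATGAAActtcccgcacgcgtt
Nupr1 (chr7:126625543-126625610, minus strand): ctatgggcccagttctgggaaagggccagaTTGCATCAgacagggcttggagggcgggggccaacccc
Atf3 (chr1:191183406-191183473, minus strand): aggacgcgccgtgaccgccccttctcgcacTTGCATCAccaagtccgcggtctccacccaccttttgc

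The match begins 103 bases upstream of the start in Pck2 and Pycr1, 200 in Vldlr, 193 in Chac1, 110 in Nupr1 and Atf3 and 23 in Asns. Chac1, which degrades glutathione, lay at 72.6, 64 and 65.2 CPM with DMSO and 9.27, 11.1 and 12.6 CPM with DZNep (log2 −2.61 ± 0.10, adjusted p = 1.99e-13). Asns, asparagine synthetase, lay at 389, 361 and 401 CPM with DMSO and 142, 158 and 174 CPM with DZNep (log2 −1.28 ± 0.06, adjusted p = 1.32e-12), and Pycr1, of proline synthesis, at 23.1, 20.3 and 21.1 CPM with DMSO and 7.41, 7.25 and 7.63 CPM with DZNep (log2 −1.53 ± 0.07, adjusted p = 4.42e-13). The stress-induced regulators Nupr1 and Atf3 fell by 1.05 and 1.74. All 7 genes, which were picked by small p, had every DZNep library below every DMSO library, as had 31.6% of all tested genes.

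Transcripts of upstream regulators of this programme changed in both directions. The list pools kinases of eIF2 with subunits of its exchange factor and a phosphatase partner, so its median has no single reading. Phosphorylation of eIF2 was not measured. Of 14 tested ATF4 regulators 7 rose, 2 fell and 5 did not pass, with a median of 0.20. The eIF2 kinases Eif2ak1 (0.53) and Eif2ak4 (0.45) rose and Eif2ak2 fell (−0.32), whereas Eif2ak3, the kinase of the endoplasmic reticulum, did not pass (0.12, adjusted p = 0.057). It passed without DMSO replicate 2 (adjusted p = 0.0363) or DZNep replicate 3 (adjusted p = 0.0425). Subunits of the exchange factor of eIF2 were higher in 4 of 5 cases, with Eif2b2 at 0.61. Ppp1r15a, which recruits the phosphatase of eIF2 and is itself induced by stress, lay at 46.4, 34.4 and 35 CPM with DMSO and 14.4, 13.5 and 14.6 CPM with DZNep (log2 −1.45 ± 0.14, adjusted p = 4.49e-07).

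The unfolded protein response of the endoplasmic reticulum split. Of 28 members 14 rose and 6 fell (median 0.13). The chaperone genes Pdia4 and Pdia6 rose by 0.88 and 0.71, and Ddit3, the stress factor CHOP, lay at 52.5, 43.4 and 45.4 CPM with DMSO and 9.74, 10.7 and 10.9 CPM with DZNep (log2 −2.17 ± 0.10, adjusted p = 1.63e-12). Ern1, a sensor of the response, fell by 0.70. Among amino acid transporters 15 of 27 fell and 6 rose: Slc6a17 lay at 109, 92.7 and 89.3 CPM with DMSO and 19.9, 21.4 and 21.4 CPM with DZNep (log2 −2.21 ± 0.07, adjusted p = 9.1e-16), Slc1a4 fell by 1.67 and Slc7a8 by 1.48, while Slc7a7 rose by 1.22.

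One-carbon metabolism, which feeds the methyl cycle, changed in both directions, at shares near those of all genes. Of 28 members of the methionine and one-carbon list 9 rose (32.1%), 10 fell (35.7%) and 9 did not pass (median 0.01). Over all tested genes 31.2% were higher and 31% lower. The largest change was in Aldh1l2, the mitochondrial 10-formyltetrahydrofolate dehydrogenase, which is also in the ATF4 target list: it lay at 232, 196 and 182 CPM with DMSO and 34.4, 34.1 and 34.7 CPM with DZNep (log2 −2.56 ± 0.08, adjusted p = 1.88e-15; chromosome 10, 83487450 to 83534140). Mat2a, which makes S-adenosylmethionine, lay at 514, 501 and 515 CPM with DMSO and 293, 271 and 297 CPM with DZNep (log2 −0.83 ± 0.05, adjusted p = 1.15e-11), and Mthfd2, of the mitochondrial folate pathway, fell by 1.03. The cytosolic enzymes Mthfd1 (0.54), Shmt1 (0.53) and Tyms (0.64) rose. On the adenosine side 5 of 9 members rose and 1 fell (2 without DMSO replicate 1 or DZNep replicate 3). Ada, adenosine deaminase, lay at 1.79, 2.33 and 2.05 CPM with DMSO and 5.02, 4.79 and 4.57 CPM with DZNep (log2 1.22 ± 0.11, adjusted p = 1.11e-08), Adk, adenosine kinase, rose by 0.34, and Slc29a1, a nucleoside transporter, fell by 0.44.

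Genes of the methyltransferase complexes changed in both directions. Of 12 PRC2 subunits 5 rose and 5 fell, none by 2-fold, from −0.51 in Phf19 to 0.44 in Eed. Several of these calls were narrow, with adjusted p of 0.0456 for Rbbp7 and 0.0499 for Suz12, and the number of higher subunits was 2 without DMSO replicate 1 and 3 without DMSO replicate 2 or DZNep replicate 3. Eed lay at 29.9, 31.6 and 30.7 CPM with DMSO and 42.2, 42.1 and 40.8 CPM with DZNep. Of 21 PRC1 subunits 7 rose (33.3%, against 31.2% of all genes) and 5 fell (23.8%, against 31%), with L3mbtl2 at 66.5, 68.8 and 77.8 CPM with DMSO and 136, 147 and 145 CPM with DZNep (log2 1.00 ± 0.06, adjusted p = 5.69e-12). Of 29 histone lysine methyltransferases 9 rose and 5 fell, 1 of them by over 2-fold: Kmt2a, named after its values were seen, lay at 1164, 872 and 611 CPM with DMSO and 285, 333 and 428 CPM with DZNep (log2 −1.34 ± 0.29, adjusted p = 0.00184). Of 19 demethylases 3 rose and 9 fell. Of 8 genes of arginine methylation, which include the non-catalytic partner Wdr77, 4 rose and 1 fell, with Prmt5 at 0.54 and Prmt7 at 0.51. Of 15 genes of DNA methylation 6 rose and 3 fell (5 without DMSO replicate 3), with the methyltransferase gene Dnmt3b up by 0.49 and the demethylating oxidase gene Tet3 down by 0.53. Genes of RNA methylation were higher in 18 of 30 cases (60%, against 31.2% of all genes) and lower in 3 (median 0.22). The lower count was 1 without DZNep replicate 1 or 2. This list holds readers, demethylases and adaptors beside the methyltransferases. Rbm15, an adaptor of the N6-methyladenosine writer, lay at 55.8, 54.2 and 45.6 CPM with DMSO and 113, 101 and 115 CPM with DZNep (log2 1.08 ± 0.07, adjusted p = 1.01e-10), and Trdmt1, a tRNA cytosine methyltransferase, rose by 0.83.

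More genes of the ribosome and of translation fell than rose, and more of ribosome assembly rose than fell. Of 69 cytosolic ribosomal proteins 35 fell, 4 rose (2 without DMSO replicate 1 or 2) and 30 did not pass (median −0.33), with Rpl4 at 1156, 1142 and 1277 CPM with DMSO and 739, 778 and 700.4 CPM with DZNep and Rps3 at 412, 420.5 and 508 CPM with DMSO and 279, 299 and 289 CPM with DZNep. Many ribosomal protein genes have processed pseudogenes that can share their reads. Of 46 ribosome biogenesis genes 25 rose, 6 fell and 15 did not pass (median 0.19). Nop2, a methyltransferase of ribosomal RNA, rose by 0.77, and Npm1 fell by 0.50. The lists of translation factors and of cytosolic tRNA synthetases were chosen after values were seen. Of 38 translation factors 21 fell, 7 rose and 10 did not pass (median −0.24). The elongation factor Eef2 lay at 2250, 2313 and 2389 CPM with DMSO and 1382, 1462 and 1379 CPM with DZNep, and Eif4g1, a scaffold of the cap complex, at 914, 929 and 833 CPM with DMSO and 1377, 1345 and 1315 CPM with DZNep (log2 0.59 ± 0.05, adjusted p = 2.99e-09). Of 22 genes of tRNA charging 16 fell and 5 rose (median −0.40), Lars furthest at −0.97. Some synthetase genes, such as Aars, Gars and Iars, are in the ATF4 target list, so these tallies are not independent.

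**Figure D2:**
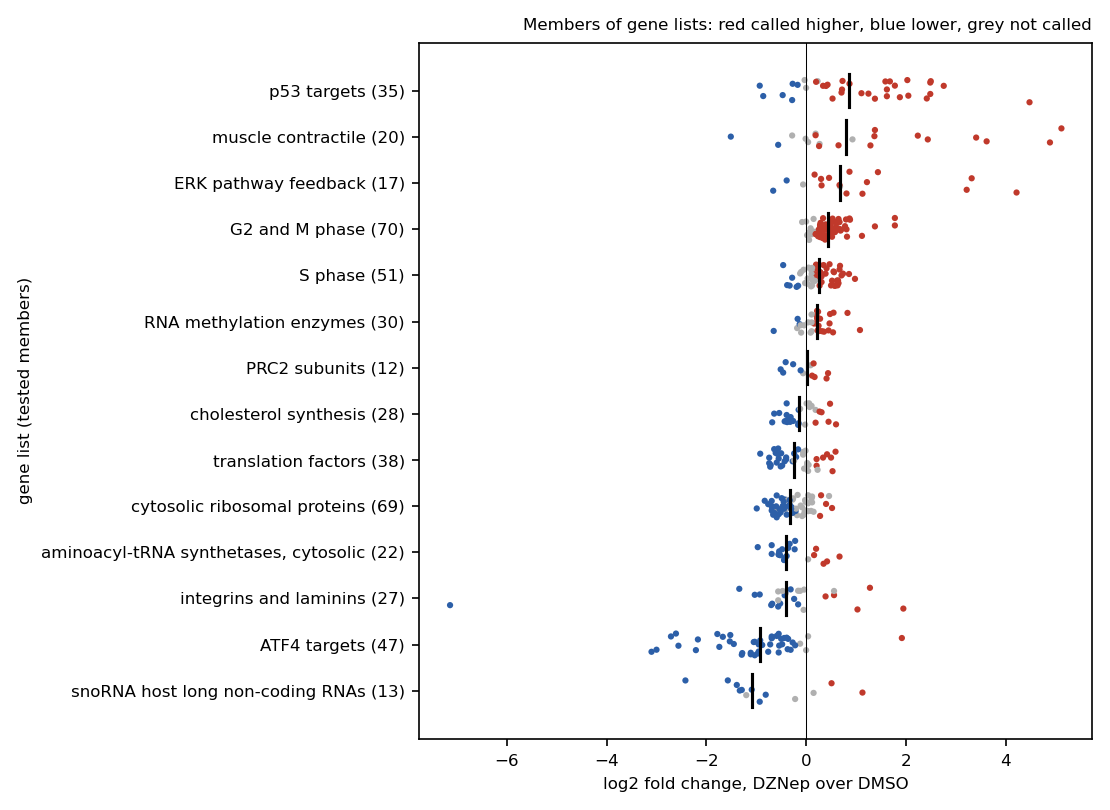
Each point is a tested member of the gene list named on the vertical axis (number tested in brackets), at its log2 fold change with DZNep on the horizontal axis; red was called higher, blue lower and grey neither, and the black bar is the list median. ATF4 targets and snoRNA host RNAs lie mostly left of 0 (medians −0.92 and −1.09), p53 targets and G2 and M phase genes mostly right of it (0.87 and 0.43); the outlying integrin and laminin point is Lamb3, with 0 counts with DZNep, whose fitted fold is no bound.

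p53 targets and genes of the dividing cell rose side by side. The p53 pathway halts the cycle or kills the cell after damage, and Cdkn1a encodes its best known effector, the cyclin-dependent kinase inhibitor p21. Cdkn1a lay at 119.8, 124 and 116 CPM with DMSO and 642, 656 and 736 CPM with DZNep (log2 2.50 ± 0.07, adjusted p = 1.1e-16; chromosome 17, 29090976 to 29100727). Of 35 p53 targets 26 rose, 17 of them by at least 2-fold, and 6 fell (median 0.87). Plk2, a kinase, lay at 4.23, 4.1 and 4.05 CPM with DMSO and 27.6, 26.6 and 29.6 CPM with DZNep (log2 2.76 ± 0.08, adjusted p = 9.05e-16), and Psrc1, a spindle protein gene listed both as a p53 target and in G2 and M phase, at 36.6, 34.1 and 37.2 CPM with DMSO and 124, 118 and 129 CPM with DZNep (log2 1.78 ± 0.05, adjusted p = 7.85e-16). Gadd45a, which is also induced by ATF4, fell by 0.93, and Rrm2b, of nucleotide supply, by 0.86. Transcripts of Trp53 itself fell, from 300.4, 322 and 320.4 to 221, 220 and 209 CPM (log2 −0.54 ± 0.08, adjusted p = 5.99e-06), and Mdm2, which degrades p53 and is its target, rose by 1.11.

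Genes of cell death changed on both sides. Of 15 tested BCL2 family genes (21 listed) 7 rose and 5 fell, 4 of them by over 2-fold, and 3 fell with the stricter filter. The lowest, Bok, named with Hrk after the values were seen, had 29 counts over the DMSO libraries and 4 over the DZNep libraries, so its change (log2 −2.44 ± 0.70, adjusted p = 0.00494) rests on few reads. The protective member Bcl2 lay at 36.4, 33.7 and 28.9 CPM with DMSO and 15, 12.6 and 13.1 CPM with DZNep (log2 −1.28 ± 0.08, adjusted p = 3.01e-11), and its relative Bcl2l1 at 45.3, 45 and 42.9 CPM with DMSO and 109, 96.4 and 107 CPM with DZNep (log2 1.23 ± 0.07, adjusted p = 6.04e-12). Of the members that promote death, Bcl2l11 rose by 1.27 and Bax by 0.71, and Bmf and Hrk fell by 1.15 and 1.64.

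Of 51 S phase genes 30 rose and 6 fell (median 0.26), with Rrm2 at 291, 321 and 329 CPM with DMSO and 511, 521 and 539 CPM with DZNep and Cdc6 and Mcm10 up by 0.68 and 0.71. Of 70 genes of G2 and M phase 59 rose (84.3%) and 0 fell (median 0.43), and their summed level was 7050 to 7870 CPM with DMSO and 9410 to 10100 CPM with DZNep. By edgeR at an unadjusted p under 0.05 the counts were also 59 and 0, DESeq2 called 0 lower, and without DMSO replicate 3 the fit called 1 lower. Gtse1, which restrains p53 in G2, lay at 40, 42.1 and 42.5 CPM with DMSO and 142, 145 and 139.5 CPM with DZNep (log2 1.78 ± 0.05, adjusted p = 9.64e-17), and the phosphatase Cdc25b at 76.3, 75.6 and 83.2 CPM with DMSO and 169.5, 175 and 168 CPM with DZNep (log2 1.12 ± 0.05, adjusted p = 2.22e-13). Of 33 genes of homologous recombination and the Fanconi pathway 19 rose and 6 fell. Brca1 lay at 300.3, 268 and 294 CPM with DMSO and 636, 649.7 and 662 CPM with DZNep (log2 1.18 ± 0.06, adjusted p = 6.11e-13). Its levels were 198, 185 and 185 CPM with GSK126, 180, 183 and 173 with scr and 403, 358 and 375 with siEzh2. The G1 cyclins Ccnd1 and Ccne1 rose by 1.22 and 0.75, and Ccnd2 and the inhibitor gene Cdkn1b fell by 0.39 and 0.49.

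Promoters of G2 and M phase genes carry a cell cycle homology region, searched as TTTGAA, and CCAAT boxes. TTTGAA lay in 39 of the 58 members with a window (67.2%), in 14.1% of tested genes and in 20.2% of all promoters. In the 250 bases before the start alone it lay in 36.2% of members, as the other matches reach into the 50 bases after the start. CCAAT lay in 42 of the 58 (72.4%), against 43% of tested genes and 41.1% of all promoters. The median change was 0.34 in members with TTTGAA and 0.52 in those without. The 5 members with the smallest p whose match lies upstream are given, with TTTGAA and CCAAT in capitals on either strand (ATTGG is CCAAT on the other strand).
Ckap2 (chr8:22185885-22185950, minus strand): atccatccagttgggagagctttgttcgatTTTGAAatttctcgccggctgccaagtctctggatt
Kif14 (chr1:136467598-136467655, plus strand): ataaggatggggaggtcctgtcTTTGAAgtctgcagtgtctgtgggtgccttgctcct
Espl1 (chr15:102296236-102296292, plus strand): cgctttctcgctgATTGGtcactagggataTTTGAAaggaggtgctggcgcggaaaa
Ube2c (chr2:164769870-164769928, plus strand): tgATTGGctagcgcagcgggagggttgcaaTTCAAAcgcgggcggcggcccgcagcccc
Ncapd2 (chr6:125191674-125191739, minus strand): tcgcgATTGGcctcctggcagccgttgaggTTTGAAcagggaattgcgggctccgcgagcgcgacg

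Among these genes of the spindle and chromosomes, Ckap2, which is also in the p53 target list, lay at 41.6, 45.6 and 38.9 CPM with DMSO and 118, 111 and 99.6 CPM with DZNep (log2 1.38 ± 0.07, adjusted p = 1.91e-12), and Kif14, Espl1, Ube2c and Ncapd2 rose by 0.78, 0.64, 0.51 and 0.34. Espl1, Ube2c and Ncapd2 carry both motifs within the stretch shown.

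Most of the listed feedback genes of the ERK pathway were higher. This list was chosen after its values were seen, so its tally reflects that choice and is no separate finding about the pathway. ERK signalling, driven by receptor kinases, switches on phosphatases and Sprouty proteins that restrain it. Of 17 genes 13 rose and 2 fell (median 0.68). The count that fell was 0 without DZNep replicate 3 and 1 without DMSO replicate 2 or 3 or DZNep replicate 1 or 2. The phosphatase Dusp6 lay at 57.7, 64.1 and 60.6 CPM with DMSO and 169, 158 and 167 CPM with DZNep (log2 1.44 ± 0.07, adjusted p = 5.77e-13). The ETS factors Etv5 and Etv4 lay at 0.956, 1.12 and 0.678 CPM with DMSO and 7.85, 8.44 and 8.71 CPM with DZNep for Etv5 and 0.0478, 0.0932 and 0.0154 CPM with DMSO and 0.915, 0.954 and 0.905 CPM with DZNep for Etv4. Spry4 lay at 0.0717, 0.233 and 0.293 CPM with DMSO and 1.77, 2 and 2.6 CPM with DZNep (log2 3.32 ± 0.36, adjusted p = 2.79e-07). For these 4 genes the DZNep libraries lay above all DMSO libraries, 3 of the 4 from very low levels. Genes as low with DMSO as Etv4 and Spry4 can pass the filter through their level with DZNep. The immediate early factor Egr1 went the other way, at 1.77, 1.72 and 1.79 CPM with DMSO and 0.118, 0.405 and 0.34 CPM with DZNep (log2 −2.55 ± 0.26, adjusted p = 4.51e-08), as did Nr4a3, a nuclear receptor gene, at 270, 234 and 247 CPM with DMSO and 73.1, 70.1 and 67.2 CPM with DZNep (log2 −1.84 ± 0.06, adjusted p = 5.13e-15). In the wider list of AP-1 and immediate early genes 20 of 34 rose and 8 fell (median 0.46).

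Kit, the receptor of stem cell factor and a guide of melanocyte development, lay at 34.8, 32.7 and 32.5 CPM with DMSO and 139, 141 and 146 CPM with DZNep (log2 2.09 ± 0.05, adjusted p = 9.55e-18; chromosome 5, 75574916 to 75656722), whereas the ligand gene Tgfa fell as given above and Erbb3 fell by 0.51. Vegfa, the angiogenic factor, lay at 92.3, 86.2 and 96.8 CPM with DMSO and 48.1, 41.7 and 37.9 CPM with DZNep (log2 −1.11 ± 0.07, adjusted p = 4.97e-11), and Tgfb1 at 51.9, 53.6 and 57.5 CPM with DMSO and 26.6, 26.8 and 25 CPM with DZNep (log2 −1.06 ± 0.06, adjusted p = 7.13e-12).

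**Figure D3:**
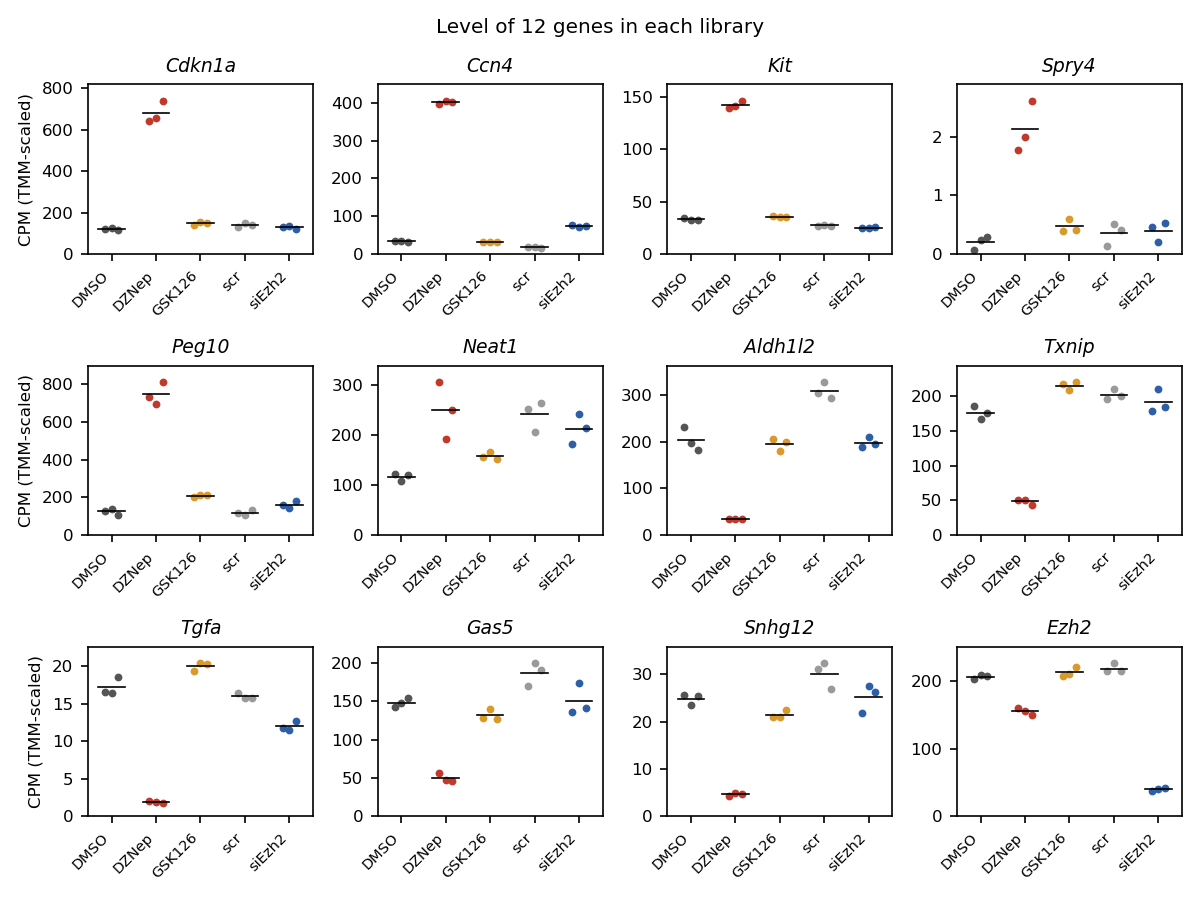
Each point is 1 library and each bar the mean of a group's 3 libraries, in CPM on a linear axis from 0, for 12 genes (chosen after their values were seen) in the 5 groups. DZNep stands apart from the other 4 groups in Cdkn1a, Ccn4, Kit, Spry4 and Peg10 (higher) and in Aldh1l2, Txnip, Tgfa, Gas5 and Snhg12 (lower), Neat1 with DZNep overlaps scr, and Ezh2 is lowest with siEzh2.

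A larger share of long non-coding RNA genes than of protein-coding genes fell. The class was examined after its values were seen. Of 952 tested genes that GENCODE M21 labels antisense, lincRNA or processed transcript, 425 fell (44.6%, against 31% of all genes) and 137 rose (14.4%, against 31.2%), with a median of −0.42. A fall of at least 2-fold was found in 306 (32.1%), against 6.29% of 12426 protein-coding genes. Each class gave a like share: 47.7% of 388 antisense genes, 42% of 331 lincRNA genes and 43.3% of 233 processed transcript genes fell. Among those at 4 CPM or more in scr, 107 of 179 fell (59.8%) and 31 rose, where protein-coding genes at that level fell in 31.5% and rose in 36% of cases. Without a stated strand setting, reads of an antisense gene and its partner cannot be told apart. Among the 254 genes of these classes that overlap no other annotated gene 117 fell (46.1%) and 43 rose, with a median of −0.47. Leaving out any 1 of the 6 libraries gave 395 to 422 lower and 121 to 143 higher. In GSK126 with DMSO, which uses the same DMSO libraries, 18 of the 952 were lower and 27 higher, and in siEzh2 with scr 77 and 75.

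**Figure D4:**
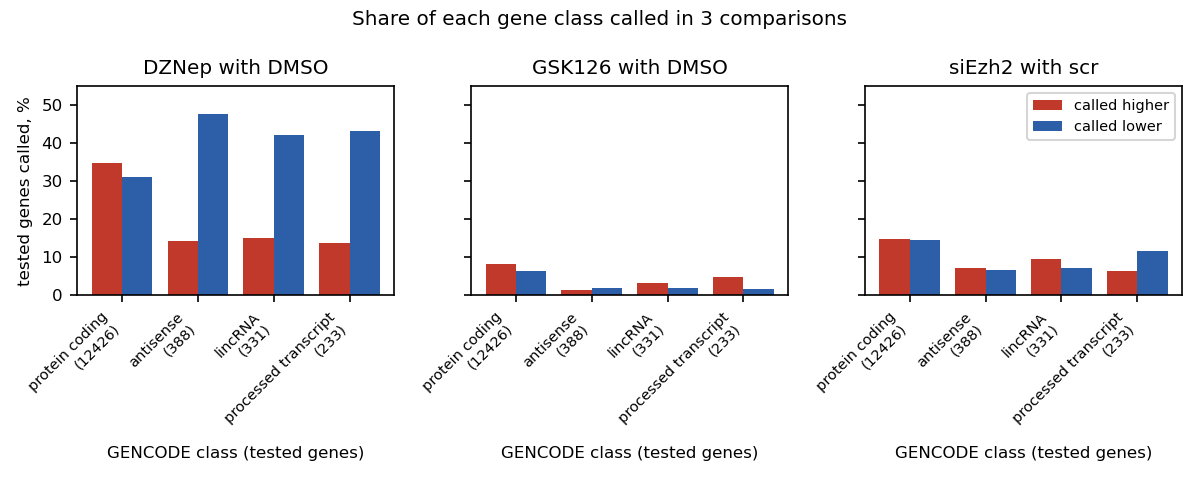
Bars give the share of tested genes called higher (red) and lower (blue), in percent from 0, in 4 GENCODE gene classes (number tested in brackets) for DZNep with DMSO, GSK126 with DMSO and siEzh2 with scr. With DZNep 42% to 47.7% of the 3 non-coding classes are lower, against 31.2% of protein-coding genes.

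Single members were chosen after their values were seen. Of 10 tested long non-coding RNAs with known names 2 rose, 4 fell and 4 did not pass, with a median of 0.34. Trp53cor1 (lincRNA-p21), a p53-induced RNA whose gene neighbours Cdkn1a, lay at 17.9, 17.1 and 18.7 CPM with DMSO and 2.33, 2.77 and 2.19 CPM with DZNep (log2 −2.88 ± 0.11, adjusted p = 3.43e-14; chromosome 17, 29057430 to 29079179), while Cdkn1a rose. Of 13 tested host RNAs of small nucleolar RNAs 8 fell and 2 rose (median −1.09). Gas5 lay at 142, 148 and 155 CPM with DMSO and 57, 47.6 and 45.3 CPM with DZNep (log2 −1.57 ± 0.10, adjusted p = 4.17e-10) and Snhg12 at 25.7, 23.6 and 25.5 CPM with DMSO and 4.25, 4.91 and 4.75 CPM with DZNep (log2 −2.42 ± 0.10, adjusted p = 3.73e-14). Snhg6 fell by 1.39, Snhg8 by 1.29, Snhg3 by 1.09, Snhg5 by 0.93 and Zfas1 by 0.81, whereas Snhg15 rose by 1.13 and Snhg17 by 0.51. Tug1 lay at 245, 218 and 202 CPM with DMSO and 106, 102 and 96.9 CPM with DZNep (log2 −1.12 ± 0.06, adjusted p = 9.42e-12). Neat1, the scaffold of paraspeckles, lay at 121, 107 and 119 CPM with DMSO and 304, 191 and 250 CPM with DZNep (log2 1.10 ± 0.15, adjusted p = 4.2e-05), but it was also 252, 206 and 264 CPM in the scr controls. Malat1 spread widely within groups, at 261, 192 and 158 CPM with DMSO and 194, 193 and 297 CPM with DZNep (adjusted p = 0.675).

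Txnip, which inhibits thioredoxin and glucose uptake, and Fbxo32, a ubiquitin ligase gene, are earlier reported to rise after DZNep in other tumour cells. Here Txnip fell 3.63-fold, from 186, 167 and 175 to 51.2, 50.8 and 43.9 CPM (log2 −1.86 ± 0.07, adjusted p = 1.56e-14; chromosome 3, 96557957 to 96561883), with no overlap between the groups. It lay at 217, 209 and 219.7 CPM with GSK126. Its paralog Arrdc4, switched on by glucose through the same factors, lay at 6.34, 5.03 and 5.51 CPM with DMSO and 1.62, 1.48 and 1.18 CPM with DZNep (log2 −1.99 ± 0.16, adjusted p = 1.44e-09), and Arrdc2 fell by 1.09, whereas Arrdc1 (0.05, adjusted p = 0.659) and Arrdc3 (0.12, adjusted p = 0.19) did not pass. Without DMSO replicate 1 Arrdc3 passed as higher (0.23, adjusted p = 0.00463). Mlxipl, which encodes the glucose-sensing factor ChREBP, lay at 0.98, 0.885 and 1.03 CPM with DMSO and 0.118, 0.0954 and 0.158 CPM with DZNep (log2 −2.93 ± 0.29, adjusted p = 3.61e-08). Fbxo32 lay at 11.3, 9.92 and 11 CPM with DMSO and 12.9, 12.6 and 12.4 CPM with DZNep (log2 0.24 ± 0.08, adjusted p = 0.0145), which did not pass when DMSO replicate 2 was left out (adjusted p = 0.0762). Of 33 glycolysis and hypoxia genes 20 rose and 6 fell (3 without DMSO replicate 1; median 0.23), with the hexokinase Hk1 at 66.6, 69.2 and 74.9 CPM with DMSO and 149, 149 and 130.4 CPM with DZNep (log2 1.02 ± 0.06, adjusted p = 7.13e-12) and the glucose transporter Slc2a1 up by 0.70.

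Genes of lipid stores and of lipid synthesis changed in both directions. Of 20 tested genes of lipid droplets and lipolysis, of 31 listed, 10 rose and 5 fell (median 0.33). Mgll rose and G0s2 fell as given above. Abhd5, the activator of the lipase that G0s2 inhibits, lay at 40.4, 42.8 and 38.2 CPM with DMSO and 75.3, 74.7 and 75 CPM with DZNep (log2 0.89 ± 0.06, adjusted p = 7.46e-11), and Bscl2, seipin, rose by 1.08. In cholesterol synthesis 15 of 28 genes fell and 6 rose (median −0.15). The sterol sensor gene Insig1 lay at 269.6, 259.9 and 259.5 CPM with DMSO and 168, 164 and 162 CPM with DZNep (log2 −0.68 ± 0.05, adjusted p = 7.69e-10), and its relative Insig2 rose by 0.60. Of 17 genes of fatty acid synthesis 8 rose and 6 fell, with Acacb down by 1.56 and Scd1 up by 0.48.

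Pigment and melanocyte genes did not move as a block. Of 33 genes of melanin synthesis and melanosomes 13 rose and 9 fell (median 0.05), and their summed level was 37200 to 39100 CPM with DMSO and 37100 to 39300 CPM with DZNep. Tyr, tyrosinase, lay at 79.6, 67.5 and 66.3 CPM with DMSO and 109, 106 and 107 CPM with DZNep (log2 0.59 ± 0.06, adjusted p = 3.91e-08), and Rab32, of melanosome transport, at 47.3, 46.6 and 50.8 CPM with DMSO and 150, 144 and 140 CPM with DZNep (log2 1.58 ± 0.05, adjusted p = 4.79e-15), while Dct fell and Mlph, which ties melanosomes to actin, fell by 0.71. Mitf, the master regulator, lay at 842, 779 and 754 CPM with DMSO and 798, 725 and 697 CPM with DZNep, groups that overlapped (adjusted p = 0.148; looked up after the values were seen). Among lineage factors and receptors 8 of 17 rose and 3 fell. Tfap2a lay at 313, 312 and 295 CPM with DMSO and 750, 728 and 778 CPM with DZNep (log2 1.29 ± 0.06, adjusted p = 2.11e-13), Sox9 at 33.4, 35.3 and 33.3 CPM with DMSO and 110.2, 110.3 and 109 CPM with DZNep (log2 1.69 ± 0.06, adjusted p = 5.26e-15), and Mc1r, the melanocortin receptor, at 237, 223 and 253 CPM with DMSO and 137, 134 and 131 CPM with DZNep (log2 −0.83 ± 0.05, adjusted p = 2.02e-11). Sox10 fell by 0.21, which did not pass without DMSO replicate 1 or 2 or DZNep replicate 1 or 3.

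Some muscle genes rose from low levels. Of 55 listed contractile genes 20 passed the filter, some of them only through their level with DZNep, so the tally leans to genes that rose. Of these 20 genes 12 rose, 9 by at least 2-fold, and 2 fell (median 0.79). Besides Neb and Atp2a1, Actn2 lay at 0.215, 0.163 and 0.0924 CPM with DMSO and 1.53, 2.15 and 1.86 CPM with DZNep (log2 3.62 ± 0.28, adjusted p = 1.13e-09), and Des, desmin, fell by 0.56. Among the 7 tested regulators, of 13 listed, Myocd, a partner of serum response factor, lay at 0.0717, 0.0932 and 0.0462 CPM with DMSO and 1.56, 1.24 and 0.905 CPM with DZNep (log2 4.13 ± 0.35, adjusted p = 3.63e-09), Mef2c and Mrtfa rose by 0.21 and 0.37, and Mef2a and Mef2d fell by 0.47 and 0.69.

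Matrix and adhesion genes were lower more often than higher. Of 27 integrins and laminins 13 fell and 5 rose (median −0.41), with Itgb5 at 29.1, 29.4 and 34 CPM with DMSO and 13.6, 16.9 and 18 CPM with DZNep (log2 −0.93 ± 0.08, adjusted p = 1.02e-08). Lamb3, a laminin subunit gene named after its values were seen, had 0 counts in all DZNep libraries and 0.55, 0.28 and 0.4 CPM with DMSO, and it overlaps G0s2 on the other strand, so the reads of both are uncertain where they overlap. Of 22 tested collagens, of 44 listed, 11 fell and 7 rose: Col4a1, of basement membranes, lay at 69.7, 67.4 and 61.9 CPM with DMSO and 26.6, 27.6 and 23.6 CPM with DZNep (log2 −1.36 ± 0.06, adjusted p = 1.2e-13), while Col5a1 and Col12a1 rose by 1.07 and 2.79. Of 30 tested matrix proteases and inhibitors, of 41 listed, 15 fell and 7 rose. Timp3 lay at 165, 147 and 142 CPM with DMSO and 56.2, 54.1 and 50.7 CPM with DZNep (log2 −1.49 ± 0.06, adjusted p = 7.44e-14), Adamts1 at 99.8, 109.7 and 103 CPM with DMSO and 283, 273 and 274 CPM with DZNep (log2 1.41 ± 0.06, adjusted p = 8.42e-14) and Mmp2 at 2.22, 2.61 and 2.17 CPM with DMSO and 10.5, 9.94 and 11.3 CPM with DZNep (log2 2.19 ± 0.12, adjusted p = 3.92e-12). The neural crest-like and invasive list did not move as a block. Of its 16 tested members, of 28 listed, 5 rose (31.2%) and 7 fell (43.8%), with a median of 0.02. Over all tested genes 31.2% were higher and 31% lower. Axl fell by 0.93, and Cdh1, E-cadherin, lay at 3.47, 3.38 and 3.6 CPM with DMSO and 11.6, 11.2 and 11.3 CPM with DZNep (log2 1.70 ± 0.11, adjusted p = 4.7e-11).

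Genes under Polycomb, imprinting or germline silencing were in large part too low to test. Of 119 listed developmental regulators bound by PRC2 in other cells 45 passed the filter, of which 14 rose and 15 fell (median −0.09), shares of 31.1% and 33.3% beside 31.2% and 31% of all genes. Hoxb9 and Hoxb8 fell by 3.40 and 1.92, Hoxa11 rose by 1.11 and Tbx2 by 0.66. Of 13 tested imprinted genes, of 30 listed, 2 rose (15.4%) and 7 fell (53.8%), with a median of −0.29. Peg10, a gene derived from a retroelement, lay at 127, 140.1 and 108 CPM with DMSO and 731, 696 and 808 CPM with DZNep (log2 2.57 ± 0.10, adjusted p = 8.28e-13; chromosome 6, 4747306 to 4760517), and its levels were 199.5, 211 and 209.9 CPM with GSK126. Of 8 tested germline genes, of 43 listed, 2 rose and 3 fell, with Rhox5 up from 0.0239, 0.0699 and 0.0616 to 0.767, 0.715 and 0.588 CPM. Cdkn1c, imprinted and a cell cycle inhibitor, fell from 0.335, 0.349 and 0.385 to 0.059, 0.0477 and 0.0226 CPM.

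Interferon-stimulated genes were mixed, with 19 of 45 higher and 10 lower (median 0.10). Cxcl10, a chemokine, lay at 7.94, 9.71 and 8.24 CPM with DMSO and 20.4, 19.2 and 18.8 CPM with DZNep (log2 1.17 ± 0.08, adjusted p = 7.14e-11) and Gbp2, a guanylate-binding protein gene, at 13.3, 12.4 and 11.3 CPM with DMSO and 33.7, 36.4 and 30.7 CPM with DZNep (log2 1.45 ± 0.08, adjusted p = 7.13e-12), while Cmpk2 fell by 0.41. Of 18 genes in the list of MHC class I presentation 9 rose and 3 fell. Tap1 rose by 0.83. Cd274, listed there although it encodes the checkpoint ligand PD-L1, fell by 0.60. H2-M3 also fell, but did not pass without DMSO replicate 2 (adjusted p = 0.125) or 3 (0.0873). Nor did it pass without DZNep replicate 1 (0.0674) or 2 (0.0732). Lysosome genes rose in 14 and fell in 13 of 38 cases (36.8% and 34.2%, beside 31.2% and 31% of all genes), from −1.11 in Glb1 to 1.30 in Smpd1, which lay at 91.7, 87.6 and 98.8 CPM with DMSO and 225, 232 and 230.1 CPM with DZNep.

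Markers of other cell types were measured beside these groups. Of 7 tested fibroblast markers, of 12 listed, 5 rose, and their summed level was 196 to 234 CPM with DMSO and 404 to 423 CPM with DZNep, most of it from Fbln1 at 169.9, 178 and 210.4 CPM with DMSO and 330.5, 352 and 352 CPM with DZNep. Col1a1 lay at 0.956, 1.12 and 0.909 CPM with DMSO and 3.45, 4.29 and 4.25 CPM with DZNep, Postn at 7.36, 6.43 and 6.19 CPM with DMSO and 49.9, 47.9 and 39.6 CPM with DZNep and Pdgfrb at 5.67, 5.43 and 5.78 CPM with DMSO and 5.16, 5.86 and 5.25 CPM with DZNep (adjusted p = 0.695). Of 4 blood and endothelial markers that passed the filter, of 17 listed, 2 rose, with a summed level of 7.52 to 9.68 and 16.6 to 16.9 CPM. Of the keratinocyte and epithelial markers Cdh1 alone passed the filter, and 2 markers passed and rose without any 1 of the DMSO libraries or without DZNep replicate 3. The part of such cells in the matrix and muscle results was not tested.

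DZNep differed from GSK126 at the same 2 µM dose in 9792 genes (64.6% of those tested), 4985 higher and 4807 lower, and by at least 2-fold in 772 (5.1%) and 1412 (9.32%). Both compounds are set against the same DMSO libraries, so their effects share controls, and GSK126 alone differed from DMSO in 1923 genes (12.7%), 7.15% higher and 5.54% lower. DZNep is a nucleoside analog and GSK126 is not. Odf3l1 was 38.2, 40.1 and 38.6 CPM with GSK126 against 2.54, 2.53 and 2.26 with DZNep (difference −4.0 ± 0.08, adjusted p = 1.11e-18). Tgfa was 19.3, 20.3 and 20.3 CPM with GSK126 (difference −3.43 ± 0.09, adjusted p = 5.64e-17). Ccn4, Col14a1 and Neb stood higher with DZNep than with GSK126 by 3.65 ± 0.05, 4.79 ± 0.12 and 4.65 ± 0.14 on the log2 scale. Of the 35 p53 targets 26 were higher and 5 lower with DZNep than with GSK126, and of the 47 ATF4 targets 43 were lower and 2 higher. Over all tested genes 32.9% were higher and 31.7% lower in this comparison. GSK126 replicate 1 carries a library number apart from the other compound libraries, and without it DZNep differed from GSK126 in 9226 genes. Not every gene differed between the compounds: Ahcy gave 0.07 ± 0.10 (adjusted p = 0.563), which does not show that they act alike on it.

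The DZNep effect differed from the effect of siEzh2, each against its own control, in 7748 genes (51.1%), 3835 higher and 3913 lower, and by at least 2-fold in 4.71% and 7.42%. These comparisons share no library. Of the 4733 genes higher with DZNep, 874 were also higher with siEzh2, which is 18.5% of the DZNep list and 43.7% of the 2000 in the siEzh2 list, and 540 were lower (11.4% and 27.6% of the 1953 lower with siEzh2). Of the 4701 lower with DZNep, 838 were also lower with siEzh2 (17.8% and 42.9%) and 583 higher (12.4% and 29.1%). Called changes of at least 2-fold with siEzh2 were 0.99% of tested genes higher and 1.2% lower. With at least 2-fold in both, 64 genes were higher in both and 64 lower in both, against 20 and 12 in opposite directions. Across the 15152 genes the 2 log2 fold changes had r = 0.23, a description over genes, which are not independent. Poln rose with DZNep and fell with siEzh2, from 1.97, 1.86 and 1.85 CPM with scr to 0.734, 0.938 and 1.03 CPM (difference of effects 4.68 ± 0.21, adjusted p = 1.13e-12). The effects on Odf3l1, Tgfa and Col14a1 differed by −2.82 ± 0.10, −2.80 ± 0.11 and 4.32 ± 0.20. Cdkn1a did not pass with siEzh2 (−0.13, adjusted p = 0.15), and the difference of effects was 2.63 ± 0.09 (adjusted p = 3.29e-14). Of the 47 ATF4 targets 28 were also lower with siEzh2 than with scr and 1 was higher (median −0.23). Over all tested genes 12.9% were lower and 13.2% higher with siEzh2. The DZNep effect on the 47 ATF4 targets was lower than the siEzh2 effect in 40 and higher in 2. Over all tested genes it was lower in 25.8% and higher in 25.3%.

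**Figure D5:**
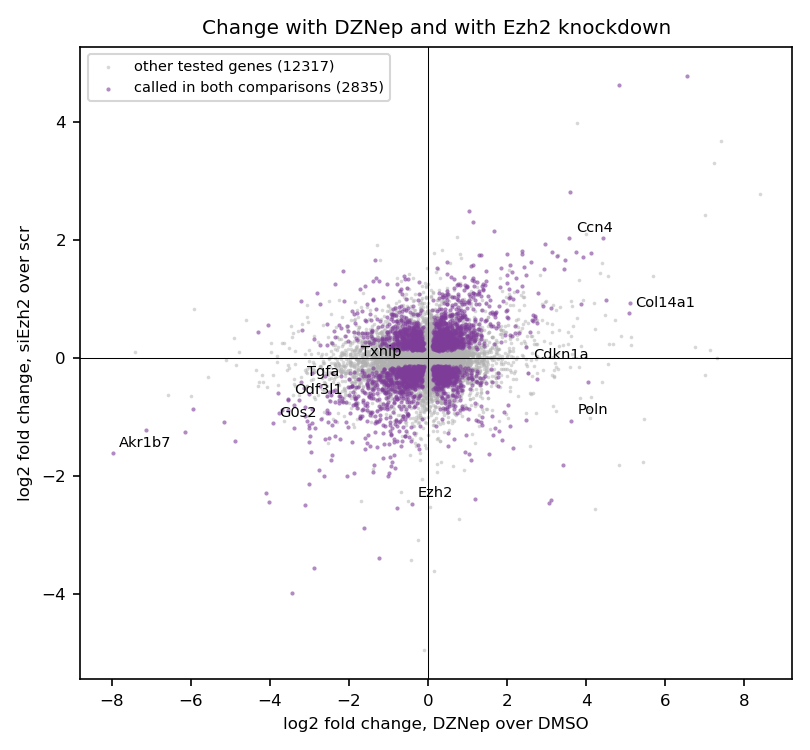
Each point is 1 of the 15152 tested genes, at its log2 fold change with DZNep over DMSO (horizontal) and with siEzh2 over scr (vertical); purple points were called in both comparisons (2835). The spread is wider along the DZNep axis, Ezh2 lies at −0.41 and −2.47, and Ccn4 and Col14a1 lie to the upper right.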

How the data were processed

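The members, gene lists and tests were chosen with earlier results of these data known. Whole-number read counts per gene, without normalization, were deposited by the authors. Per the submitters' processing notes, STAR, featureCounts and GRCm38 were used to make them. Their versions, the annotation, the strand setting and the kit were not given in the sources used here, so reads of overlapping, antisense and near-identical genes may be shared. Of 46078 identifiers 45143 matched GENCODE M21, which gave symbols, coordinates and classes. Samples were grouped by their treatment label, and columns were matched by library name.

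Counts of all 15 libraries entered 1 fit of edgeR 4.0.16 (R 4.3.3), with TMM scaling, robust quasi-likelihood tests, a term per group and no covariate. Its low-count filter left 15152 genes. Adjusted p is Benjamini-Hochberg over these, and genes were called under 0.05. Fold changes are log2 values ± SE. The common dispersion was 0.00409 (6.4% between libraries). The floor was set at 3 counts summed over a group, which covers counting error only: 18 genes called higher were at it with DMSO and 47 called lower with DZNep. Replicates differed by more than sampling noise (chi-square per degree of freedom 5.81 to 38.1), so each was counted.

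Genes named were the always-named Ezh2, Ezh1, Ahcy, Txnip, Fbxo32 and Cdkn1a, the 12 largest increases and decreases with no overlap between groups, 2 CPM or more on average and a symbol that is not a predicted one, the 8 largest gains and losses in CPM, the 3 members of each list with the smallest p in each direction (all members of short lists), and the 5 of the largest changes that differed most from GSK126 and from siEzh2. Other names were chosen after their values were seen. Lists were described by counts and medians over the members that passed the filter, with no test. A low member passes if 1 group is high, so such counts lean to genes that differ. Of 1714 listed symbols 1708 matched. Alternatives were RLE size factors, library totals, no filter, at least 1 CPM in 3 libraries, only the compared groups, a replicate block, DESeq2 1.42.0, each library left out, and a shorter promoter window. Promoter sequences are from RefSeq (GRCm38.p6).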

Additional observations from a re-analysis of the deposited data

How the results depend on the processing

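Over the alternatives run, the count of genes called in DZNep with DMSO stayed within 8401 (only the compared groups in the fit) and 9830 (no filter) around 9434, and the share that was higher within 49.3% and 50.9%. The count at least 2-fold was 1976, and 1249 with the stricter filter, which tests fewer low genes. Leaving out each library gave 8739 to 9466 called genes. Same-numbered libraries did not deviate together (correlations of 0.0405, 0.0191 and 0.00522), and the fit with the replicate block called 9451. In DZNep with GSK126 the count ran from 8913 to 10258 and in the difference from siEzh2 from 7210 to 8086. TTTGAA lay in 36.2% of G2 and M phase promoters in the 250 bases before the start, against 67.2% of the whole window. In the 3 non-coding classes the stricter filter left 271 lower and 79 higher. Of 393 called genes among the 438 that the naming rule covers, 20 lost their call under at least 1 alternative and 0 changed sign. Of 120 counts of list members, 20 moved by over 1.5 times under at least 1 alternative, each of them a count of 6 or fewer except those of nuclear oxidative phosphorylation. The depth limits genes near 1 count per library, where folds are wide.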

Other observations

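Organelle and redox gene groups showed divided changes with DZNep. Over all tested genes 31.2% were higher and 31% lower. The shares were 33.3% and 17.5% for nuclear oxidative phosphorylation and 40% and 20% for NRF2 targets. Those of the proton pump (29.4% and 29.4%) and the proteasome (29.7% and 24.3%) lay at or below the shares of all genes. Of 57 nuclear genes of oxidative phosphorylation 19 were higher and 10 lower, with the ATP synthase gene Atp5g1 at 15, 14.4 and 18.3 CPM with DMSO and 26.3, 30.3 and 32.5 CPM with DZNep (log2 0.90 ± 0.09, adjusted p = 7.32e-08) and the complex I gene Ndufa6 at 35, 31.6 and 50.1 CPM with DMSO and 15.8, 18 and 20 CPM with DZNep (log2 −1.12 ± 0.15, adjusted p = 2.48e-05). The higher count fell to 9 without DMSO replicate 1, 12 without DMSO replicate 2 and 11 without DZNep replicate 2, and the lower count to 6 without DZNep replicate 3. Of the 13 mitochondrially encoded messengers mt-Co3 was higher (0.50) and mt-Nd1 lower (−0.70). The lower count was 2 with DESeq2, library totals or the stricter filter, 3 with only the compared groups and 4 with no filter. The proton pump of acidic vesicles had 5 of 17 subunits higher and 5 lower, with Atp6v0a1 at 0.43 and Atp6v0a2 at −0.61. Among 37 proteasome genes 11 were higher and 9 lower, with Psmd8 at 0.61 and Psmc6, the lowest, at −0.37. NRF2 targets, of the oxidant response, were higher in 10 and lower in 5 of 25 cases: the glutathione synthesis gene Gclm lay at 35.2, 37.2 and 33 CPM with DMSO and 57.9, 58.8 and 54.5 CPM with DZNep (log2 0.70 ± 0.06, adjusted p = 7.75e-09), and the cystine carrier gene Slc7a11, which is also a target of ATF4, at 86, 71.8 and 54.5 CPM with DMSO and 35, 36 and 40.9 CPM with DZNep (log2 −0.92 ± 0.13, adjusted p = 2.1e-05).

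Few replication-dependent and linker histone genes could be tested, and these changed in both directions with DZNep. Of 45 listed, 13 passed the filter. Of these 3 were higher (23.1%, against 31.2% of all genes) and 5 lower (38.5%, against 31%). The higher count was 5 with no filter. Hist1h3g did not pass as higher with DESeq2 (adjusted p = 0.0647) or, in the edgeR fit, without DZNep replicate 2 (adjusted p = 0.292). Hist1h2bg lay at 0.263, 0.256 and 0.339 CPM with DMSO and 1.39, 1.31 and 2.06 CPM with DZNep (log2 2.44 ± 0.24, adjusted p = 2.33e-08) and Hist2h2be at 18.1, 16.8 and 17.3 CPM with DMSO and 3.28, 3.43 and 3.53 CPM with DZNep (log2 −2.35 ± 0.08, adjusted p = 3.52e-15). Histone copies are near-identical, so the split of reads between them is uncertain. In TGF-beta, BMP and Wnt feedback 8 of the 20 tested genes (28 listed) were higher and 5 lower, with Axin2, a Wnt target, at 29.1, 29.2 and 26.3 CPM with DMSO and 50.6, 48.8 and 49.6 CPM with DZNep (log2 0.82 ± 0.07, adjusted p = 1.49e-09) and Smad6 at −0.80. Among 16 tested aldo-keto reductases and aldehyde enzymes, of 23 listed, 6 were higher and 4 lower, and Akr1b10 (0.43) went the other way from Akr1b7 (−7.97).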
